A study of Mus musculus with 8 samples.

Results

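The TRBD and TRBC genes of the mouse T cell receptor beta locus, TRBD2, TRBD1, TRBC2 and TRBC1, were followed through the receptor contigs of T cells from the brain. Members were the productive TRB contigs, taken by their deposited D call and their deposited C call, and they numbered 6795 of 12792 contigs in the 4 receptor libraries. By D call they held 555 contigs with TRBD2, 927 with TRBD1 and 5313 with no called D. By C call they held 4439 contigs with TRBC2, 2309 with TRBC1 and 47 with no called C.

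CD45+ immune cells were sorted out of brain parenchyma of C57BL/6 mice, and paired receptor chains of single cells were read with the 10x Immune Profiling v2 chemistry. The groups were 5xFAD;Cxcr6-/- mice, which lack the chemokine receptor CXCR6, and 5xFAD mice, with 2 libraries each. Mice of both groups carry the 5xFAD transgenes, which encode human amyloid precursor protein and presenilin with mutations of familial Alzheimer's disease, so no library came from mice without amyloid disease. No age is given in the labels, nor whether libraries of the same genotype stand for different mice, so p-values measure the spread between these libraries, which may be technical. The 4 gene expression samples of the series were not analysed here.

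A TCR beta chain is assembled by V(D)J recombination. A TRBD segment is first joined to a TRBJ segment, a TRBV segment is then joined to the DJ unit, and the DNA between joined segments is deleted. Nucleases trim the ends and terminal transferase adds untemplated bases, so the junction that encodes CDR3, the loop that contacts peptide and MHC, holds only a remnant of the D segment, while the TRBC exons, which encode the membrane-anchored constant domain, are spliced to the rearranged V(D)J exon in the transcript.

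In the GENCODE vM21 annotation of GRCm38, all these genes lie on the plus strand of chromosome 6 in the order TRBD1, the TRBJ1 cluster, TRBC1, TRBD2, the TRBJ2 cluster and TRBC2. TRBD2 (chr6:41542163-41542176) lies 8962 bases after the start of TRBD1 (chr6:41533201-41533212). TRBC2 (chr6:41546730-41548352) starts 13529 bases after that point, and TRBC1 (chr6:41538218-41539881) starts 5017 bases after it. A deletion that joins TRBD2 to a TRBJ1 segment is not possible in this order, because TRBD2 lies behind the whole TRBJ1 cluster, whereas TRBD1 can be joined to either cluster.

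**Figure D1:**
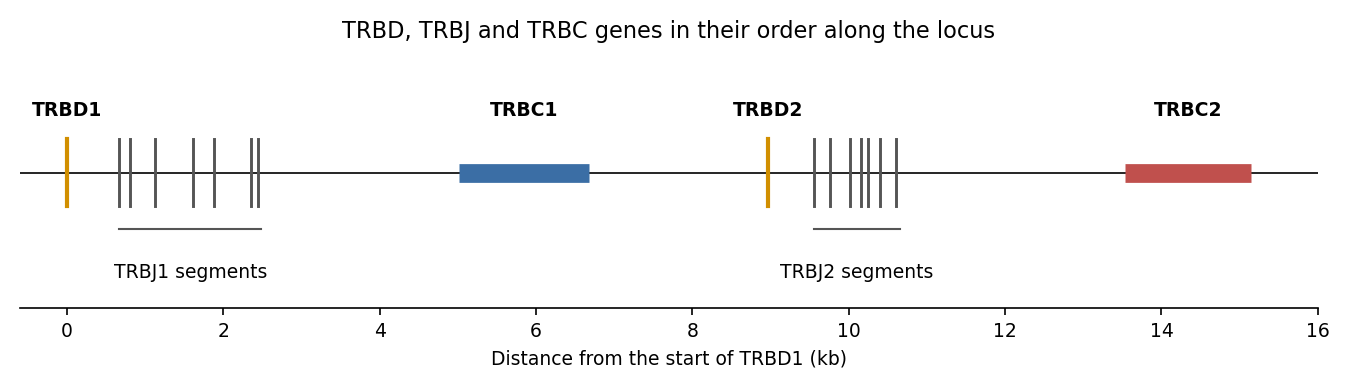
Map of the TRBD, TRBJ and TRBC genes of the mouse locus, drawn to scale as the distance from the start of TRBD1 in kb. Thick orange ticks are TRBD segments, thin grey ticks are TRBJ segments and boxes are the TRBC genes. TRBD2 stands after TRBC1 and before the TRBJ2 cluster.

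The germline D segments are shown because every D call rests on telling them apart. TRBD2 has 14 bases and TRBD1 has 12. Counted from the 5′ end they first differ at base 6, which is in capitals, and after it both run on as a stretch of G, longer in TRBD2, that ends in a C.
TRBD2 germline: gggacTgggggggc
TRBD1 germline: gggacAgggggc

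The first exons of TRBC2 and TRBC1, each 375 bases long, differ at 1 base. It is C260A, with the base of TRBC1 first and that of TRBC2 last, counted from 1 at the first base of exon 1. The stretch around it, at chr6:41546974-41547004 for TRBC2 and chr6:41538462-41538492 for TRBC1, is shown with the differing base in capitals.
TRBC2 exon 1: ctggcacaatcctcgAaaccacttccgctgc
TRBC1 exon 1: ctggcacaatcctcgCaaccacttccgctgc

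TRB contigs numbered 806 and 1359 in the 5xFAD;Cxcr6-/- libraries 1 and 2, and 2104 and 2526 in the 5xFAD libraries 1 and 2. TRB UMIs totalled 9835 and 16176 in the 5xFAD;Cxcr6-/- libraries and 24483 and 25085 in the 5xFAD libraries, with a median of 9 to 10 per contig. Shares were computed over rearrangements, each being a distinct CDR3 nucleotide sequence of a clonotype of 1 library, whatever the number of its cells. There were 578 and 1076 rearrangements in the 5xFAD;Cxcr6-/- libraries, and 1353 and 1573 in the 5xFAD libraries. All contigs of a rearrangement carried the same D call (564 rearrangements were seen in at least 2 contigs). Between libraries, 28 cell barcodes were shared, and 0 of them had the same TRB CDR3 in both. Intervals on shares are exact 95% Clopper-Pearson intervals, the limit given for a count of 0 is 3 counts of the total, and both cover counting error only.

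The constant gene went with the J cluster in every contig that had both calls. TRBC2 was called in 4439 contigs and all of them carried a TRBJ2 segment, and TRBC1 was called in 2309 contigs and all of them carried a TRBJ1 segment. Contigs whose TRBC went against the TRBJ cluster numbered 0 of 6748, which allows a share of up to 0.0445% by the limit of 3 counts. The TRBC2 share of rearrangements with a called C was therefore 100% with TRBJ2 and 0% with TRBJ1 in 4 of 4 libraries (exact sign-flip permutation test, two-sided, p = 0.125, the smallest that 4 libraries can give). This pattern was not checked on the C sequence, and for most contigs it could not be. Of the 6748 contigs with a called C, 5946 (88.1%) had fewer than 260 bases outside the framework and CDR regions, so they could not reach the base at which the 2 first exons differ. By library the share of such contigs was 92.3% and 86.7% in the 5xFAD;Cxcr6-/- libraries and 91.2% and 85.0% in the 5xFAD libraries. For those contigs a call of TRBC2 or TRBC1 cannot be told apart from a call that follows the J segment. The test above cannot decide between them, because calls that follow the J segment give the same 100% and 0%. The bases counted include those before the first framework region, so the other 802 contigs need not reach that base either.

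Across the locus, TRBC2 was the more frequent constant gene in all libraries. Its share of rearrangements with a called C was 60.0% and 65.8% in the 5xFAD;Cxcr6-/- libraries 1 and 2, and 64.0% and 65.0% in the 5xFAD libraries 1 and 2. Since no called C went against the J cluster, each TRBC2 share here and below equals the TRBJ2 share of the same rearrangements. The 47 contigs with no called C were mostly TRBJ1 contigs, with 10 of 4449 TRBJ2 contigs (0.225%) and 37 of 2346 TRBJ1 contigs (1.58%). Contigs with no called C had a median of 2 UMIs and 147 bases outside the framework and CDR regions, and contigs with a called C had 10 UMIs and 206 bases. The part of depth and contig length in the missing C calls was not tested.

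The D call followed the order of the locus with few exceptions. Among TRBJ2 rearrangements with a called D, TRBD2 took 45 of 99 and 71 of 165 in the 5xFAD;Cxcr6-/- libraries 1 and 2, and 112 of 223 and 124 of 252 in the 5xFAD libraries 1 and 2. Among TRBJ1 rearrangements with a called D, TRBD2 took 1 of 39 and 2 of 74 in the 5xFAD;Cxcr6-/- libraries, and 2 of 91 and 1 of 125 in the 5xFAD libraries. Another 2187 TRBJ2 rearrangements had no called D. Of these, 869 matched TRBD2 best and 513 matched TRBD1 best in the direct comparison with germline described below. Among called D segments, TRBJ2 held 352 with TRBD2 and 387 with TRBD1, and TRBJ1 held 6 with TRBD2 and 323 with TRBD1. The mean TRBD2 share was 47.0% ± 3.34 in TRBJ2 and 2.07% ± 0.871 in TRBJ1 (SD, n = 4 libraries), a difference of 44.9 percentage points that was positive in 4 of 4 libraries (exact sign-flip permutation test, two-sided, p = 0.125, adjusted 0.125 over 5 comparisons within libraries).

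**Figure D2:**
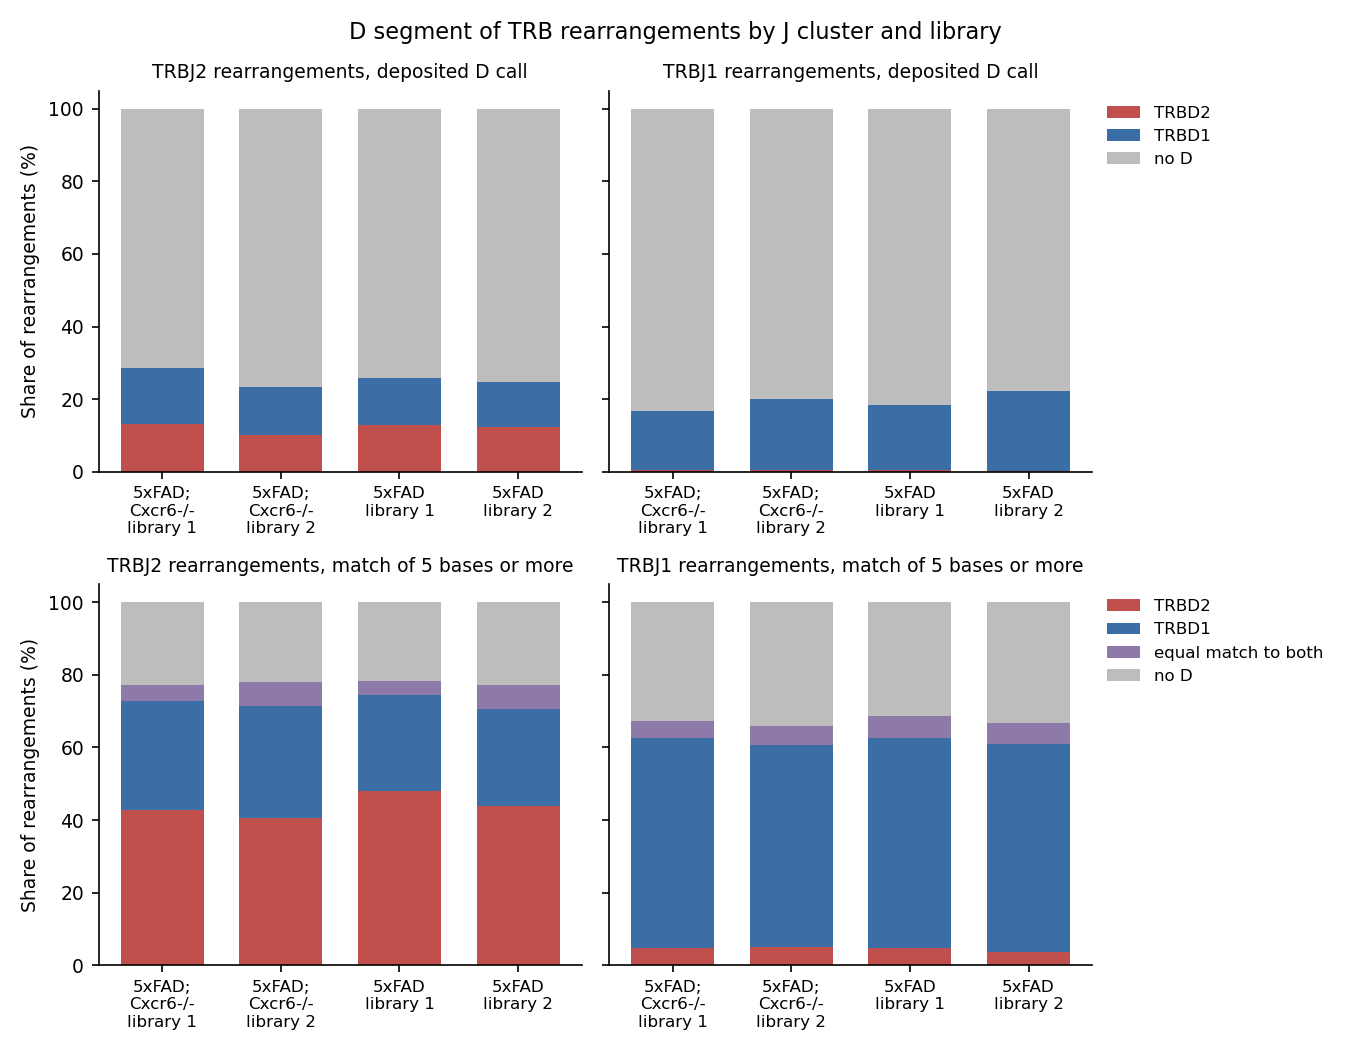
Share of TRB rearrangements in percent by D segment in each library, for TRBJ2 (left) and TRBJ1 (right). The upper row uses the deposited D call and the lower row the germline TRBD with the longest exact match of at least 5 bases in the junction. TRBD2 fills a larger part of the TRBJ2 bars than of the TRBJ1 bars in all 4 libraries. The grey part without a D is smaller in the lower row.

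The 6 rearrangements deposited as TRBD2 with TRBJ1 are shown because they go against the order of the locus. Each is the CDR3 from its first to its last codon. Capitals mark the longest exact match to germline TRBD2 among the bases that neither the germline V nor the germline J matched.
5xFAD;Cxcr6-/- library 1, TRBV13-2 with TRBJ1-1: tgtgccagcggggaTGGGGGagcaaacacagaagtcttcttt
5xFAD;Cxcr6-/- library 2, TRBV13-3 with TRBJ1-3: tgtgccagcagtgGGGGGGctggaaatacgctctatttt
5xFAD;Cxcr6-/- library 2, TRBV20 with TRBJ1-1: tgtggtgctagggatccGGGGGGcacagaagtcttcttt
5xFAD library 1, TRBV13-1 with TRBJ1-2: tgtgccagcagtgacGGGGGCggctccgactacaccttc
5xFAD library 1, TRBV13-2 with TRBJ1-6: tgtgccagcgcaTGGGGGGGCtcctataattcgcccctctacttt
5xFAD library 2, TRBV16 with TRBJ1-3: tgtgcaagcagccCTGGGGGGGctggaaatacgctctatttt

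The matches were 6 bases long in the first 4 of these and 9 bases long in the last 2, and each held a run of G of TRBD2. The rearrangement with TRBV16 was carried by 3 cells and the other 5 by 1 cell each. The first had no called C at a depth of 2 UMIs, and the other 5 were called TRBC1. In the fourth sequence the longest match to TRBD1 was also 6 bases, so its letters match both D segments equally. Beside that run the marked matches held at most base 6, the base before it and the final C of the segment.

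The deposited call named few D segments, so each junction was also compared with both germline segments directly. The bases of the CDR3 that neither the germline V nor the germline J matched were searched for the longest exact match to each TRBD, and the longer one was taken from 5 bases on. By this measure TRBJ2 held 1292 rearrangements closest to TRBD2, 820 closest to TRBD1, 161 with equal matches and 653 without a match of 5 bases. TRBJ1 held 74 closest to TRBD2, 945 closest to TRBD1, 94 with equal matches and 541 without one. The TRBD2 share of those with either segment in TRBJ2 was 59.0% and 56.9% in the 5xFAD;Cxcr6-/- libraries and 64.4% and 62.0% in the 5xFAD libraries. In TRBJ1 it was 7.53% and 8.44% in the 5xFAD;Cxcr6-/- libraries and 7.79% and 5.88% in the 5xFAD libraries.

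The longer the match, the further the 2 clusters stood apart. In TRBJ2 the TRBD2 share was 69.3% (1084 of 1565) for matches of at least 7 bases and 80.2% (527 of 657) for at least 10. In TRBJ1 it went the other way, with 6.97% (40 of 574) for at least 7 bases, 3.08% (11 of 357) for at least 8, 0.905% (2 of 221) for at least 9 and 0 of 126 for at least 10, which allows up to 2.38%. The limit of 10 bases was chosen after the values were seen. These lengths leave out bases that the germline V or J also matched, which would lengthen the match in some of the TRBJ1 junctions shown above. TRBD2 is the longer segment, so a higher minimum match favours it in both clusters. The rise in TRBJ2 cannot be told apart from this effect of segment length, whereas the fall in TRBJ1 went against it. Of the TRBJ2 rearrangements closest to TRBD2, 1164 of 1292 (90.1%) had a match that covered base 6, the base that separates the segments, against 34 of 74 (45.9%) of the TRBJ1 rearrangements closest to TRBD2. The other TRBJ1 matches to TRBD2 lay in the G stretch alone.

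**Figure D3:**
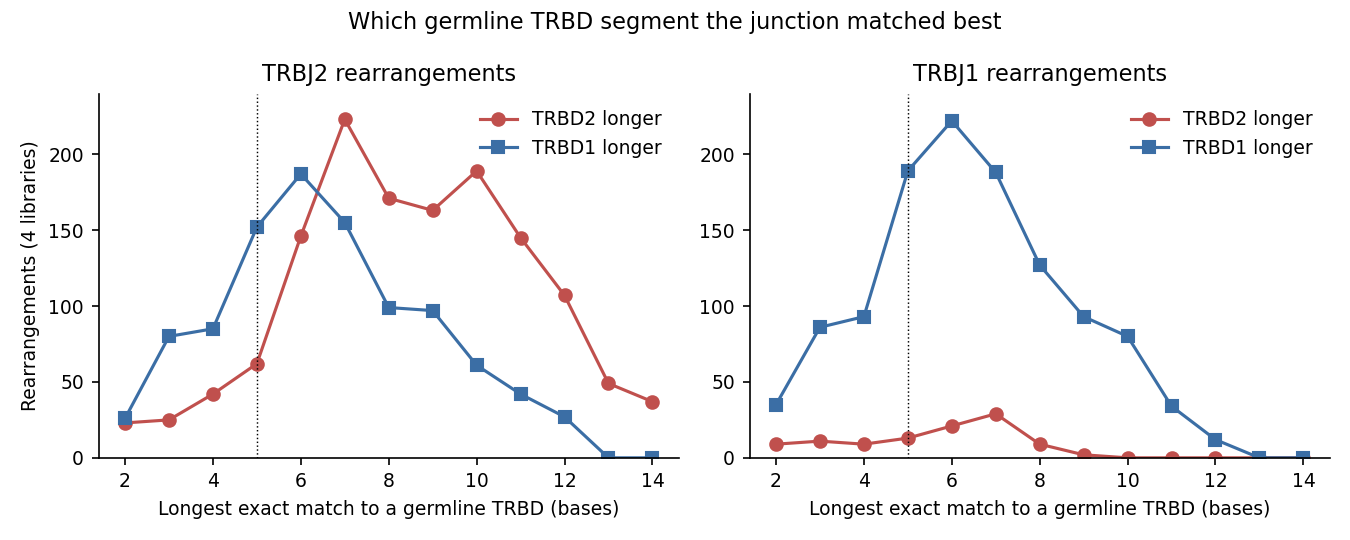
Number of rearrangements over the 4 libraries against the length in bases of the longest exact match to a germline TRBD, for TRBJ2 (left) and TRBJ1 (right). Red circles are rearrangements matched longest by TRBD2 and blue squares those matched longest by TRBD1, and the dotted line marks 5 bases. In TRBJ1 the red line lies at 0 from 10 bases on, whereas in TRBJ2 it stays above 0 up to the whole 14 bases of TRBD2.

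Whole D segments survived in some junctions, and all of these carried the matching deposited call. The whole of TRBD2 stood in 37 TRBJ2 rearrangements and in 0 TRBJ1 rearrangements, and the whole of TRBD1 stood in 27 TRBJ2 and 12 TRBJ1 rearrangements. The example of each with the most cells is shown, with the D segment in capitals. These and the following junctions were chosen after their values were seen.
whole TRBD2, 5xFAD;Cxcr6-/- library 2, TRBV5 with TRBJ2-4, 4 cells: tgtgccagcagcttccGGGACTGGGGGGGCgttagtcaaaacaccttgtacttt
whole TRBD1, 5xFAD library 1, TRBV12-1 with TRBJ2-1, 10 cells: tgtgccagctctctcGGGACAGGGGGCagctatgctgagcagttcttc

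No D was called in 3512 of 4580 rearrangements (76.7%). The share was 76.1% and 77.8% in the 5xFAD;Cxcr6-/- libraries and 76.8% and 76.0% in the 5xFAD libraries. It was 74.3% ± 2.24 in TRBJ2 and 80.6% ± 2.40 in TRBJ1 (SD, n = 4 libraries), a difference of -6.31 percentage points that was negative in 4 of 4 libraries (exact sign-flip permutation test, two-sided, p = 0.125, adjusted 0.125). With matches of at least 5 bases in place of the deposited call it was -10.4 percentage points, and with at least 7 bases -18.6. TRBD2 is the longer segment and was matched mostly in TRBJ2. The wider gap at the higher minimum cannot be told apart from this effect of segment length. Median UMIs per contig were 10 with no called D, 9 with TRBD2 and 9 with TRBD1.

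Rearrangements with no deposited D often held letters of a D segment, how often depending on the match asked for. Of the 3512, 935 (26.6%) matched TRBD2 best by at least 5 bases, 1145 (32.6%) matched TRBD1 best, 239 (6.81%) matched both equally and 1193 (34.0%) had no such match. Matches of at least 6 bases were left in 1747 of them and matches of at least 7 bases in 1135. A match can arise without the segment, and how often this happens was not measured. The share with no deposited D was 94.0% of TRBJ2 and 92.3% of TRBJ1 rearrangements at a match of 6 bases. At 9 bases it was 50% (130 of 260) in TRBJ2 but 14.7% (14 of 95) in TRBJ1. At 12 bases it was 29 of 134 in TRBJ2 and 0 of 12 in TRBJ1, and 0 of 49 with 13 and 0 of 37 with 14 matching bases lacked a call. These contrasts cannot be assigned to the J cluster, since the clusters differed in the segment matched. At 9 bases TRBD2 matched longest in 163 of 260 TRBJ2 and 2 of 95 TRBJ1 rearrangements. Of the 260, 29 were called TRBD2 and 101 were called TRBD1. At 12 bases all 29 without a call matched TRBD2 longest, and the 27 TRBJ2 rearrangements that matched TRBD1 all had a call. Long remnants without a call are shown with the match in capitals.
12 bases of TRBD2, 5xFAD library 1, TRBV29 with TRBJ2-7, 3 cells: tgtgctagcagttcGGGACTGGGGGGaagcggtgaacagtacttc
11 bases of TRBD1, 5xFAD library 1, TRBV12-2 with TRBJ2-7, 2 cells: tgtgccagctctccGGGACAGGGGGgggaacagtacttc

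Rearrangements deposited as TRBD2 matched TRBD2 best in 357 of 358 cases, and the remaining one matched both segments equally. Those deposited as TRBD1 matched TRBD1 best in 620 of 710 cases (87.3%) and TRBD2 best in 74 (10.4%), of which 71 carried a TRBJ2 segment. One of them, with 10 matching bases of TRBD2 in capitals and a longest match to TRBD1 of 5 bases, is shown.
deposited TRBD1, 5xFAD library 2, TRBV13-1 with TRBJ2-7, 2 cells: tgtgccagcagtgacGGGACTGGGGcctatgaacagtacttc

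Deposited calls went with longer matches and more often with an intact 3′ end of the segment. At the 5′ end this held for TRBD1 but not for TRBD2. The mean match to TRBD2 in TRBJ2 was 11.3 bases with TRBD2 deposited and 9.11 bases over all matches that covered base 6. Among TRBJ2 rearrangements whose TRBD2 match covered base 6, the 3′ end was intact in 51.6% of the 339 with TRBD2 deposited, against 17.4% of all 1164. For TRBD1 in TRBJ2 the 3′ end was intact in 28.7% of the 307 with TRBD1 deposited and in 12.6% of all 820. The 5′ end was intact in 23.3% with TRBD2 deposited and in 25.5% of all matches to TRBD2, and in 49.2% with TRBD1 deposited and in 34.9% of all matches to TRBD1. A longer match leaves fewer bases that can be missing, so match length and intact ends cannot be told apart here. The mean number of bases missing from the 3′ end over all such matches was 2.65 for TRBD2 and 2.84 for TRBD1, and from the 5′ end 2.24 for TRBD2 and 1.80 for TRBD1. Untemplated bases that happen to equal the germline cannot be told apart from germline bases in these counts.

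Within TRBJ2, CDR3 was longest with TRBD2. There the mean CDR3 with TRBD2 had 15.09, 15.04, 15.03 and 15.10 amino acids in the 5xFAD;Cxcr6-/- libraries 1 and 2 and the 5xFAD libraries 1 and 2. With TRBD1, in the same order, it had 14.1, 14.3, 14.5 and 14.3 amino acids. The libraries did not overlap, and the difference was 0.761 amino acids (15.07 ± 0.0371 with TRBD2 and 14.3 ± 0.149 with TRBD1, SD, n = 4 libraries; exact sign-flip permutation test, two-sided, p = 0.125, adjusted 0.125). With the direct match the difference was 0.740 amino acids, and with matches of at least 10 bases it was 0.392. In these TRBJ2 rearrangements the longest match to TRBD2 averaged 11.2 bases in those deposited as TRBD2, and the longest match to TRBD1 averaged 8.23 bases in those deposited as TRBD1. In TRBJ1 the mean CDR3 was not longer with TRBD2, at 13.7 amino acids in the 6 rearrangements deposited as TRBD2 and 14.5 in the 323 deposited as TRBD1. With the direct match TRBJ1 had 13.97 amino acids in 74 rearrangements with TRBD2 and 14.2 in 945 with TRBD1. Glycine, the residue that the G stretch encodes, averaged 2.68 per TRBJ2 CDR3 with TRBD2 and 1.95 with TRBD1.

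Rearrangements with no called D had the shorter CDR3. Over both clusters the mean was 13.6, 13.7, 13.8 and 13.6 amino acids with no called D, and 14.4, 14.6, 14.7 and 14.6 amino acids with a called D, in the 5xFAD;Cxcr6-/- libraries 1 and 2 and the 5xFAD libraries 1 and 2. The difference was -0.902 amino acids, negative in 4 of 4 libraries (exact sign-flip permutation test, two-sided, p = 0.125, adjusted 0.125). A D call needs D bases in the junction, so the call and the length are not independent. The bases between the V and J matches averaged 9.20 with no called D and 13.7 with a called D. No D was called in 95.3% of the 192 rearrangements with a CDR3 of 11 amino acids, 78.6% of the 1386 with 14 and 45.5% of the 112 with 17. The share without any match of 5 bases was 68.8% at 11 amino acids and 3.57% at 17.

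**Figure D4:**
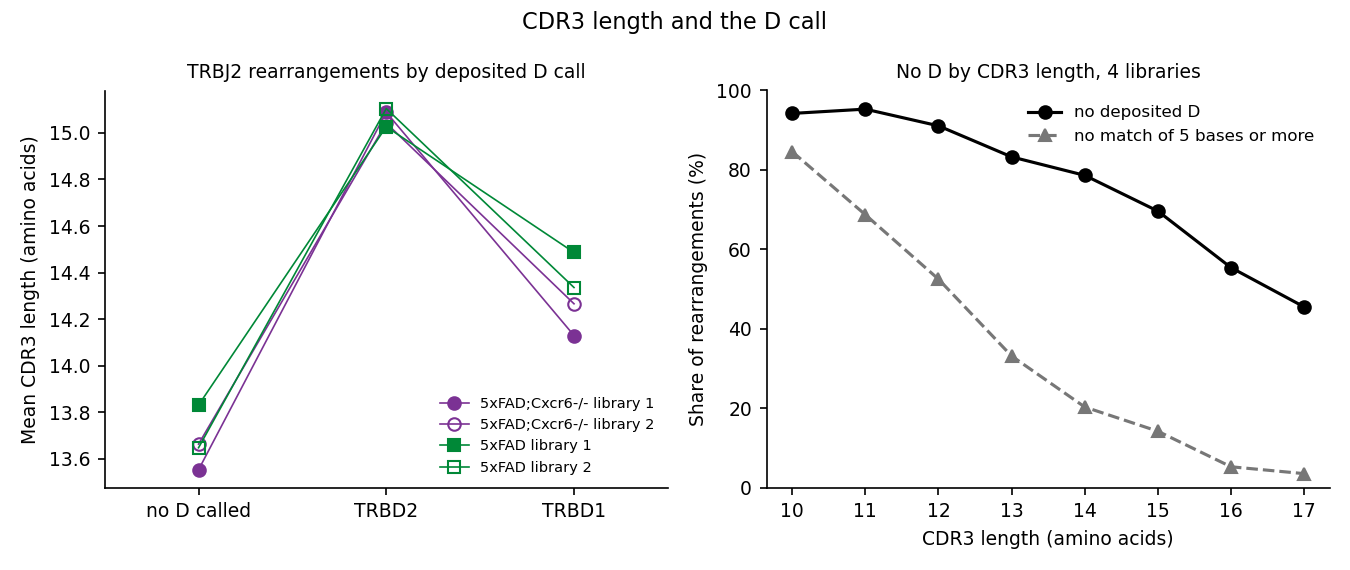
Left, mean CDR3 length in amino acids of TRBJ2 rearrangements with no called D, with TRBD2 and with TRBD1, with 1 line per library (the axis does not start at 0). Right, share of rearrangements in percent without a deposited D (circles) and without a match of at least 5 bases (triangles) by CDR3 length, for lengths with at least 50 rearrangements. TRBD2 stands highest in every library on the left, and both curves on the right are lower at 17 than at 10 amino acids.

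TRBD segments can be read in all 3 frames, which give different residues at the codon with base 6. Frame 1 gives threonine with both segments, frame 2 gives leucine with TRBD2 and glutamine with TRBD1, and frame 3 gives tryptophan with TRBD2 and arginine with TRBD1. Among TRBJ2 rearrangements whose match covered base 6, TRBD2 was read in frame 1, 2 and 3 in 34.5%, 31.4% and 34.1% of 1164, and TRBD1 in 35.0%, 30.5% and 34.5% of 820. With TRBJ1, TRBD1 was read in frame 1 in 40.3% of 945, and in 40.7% and 41.3% in the 5xFAD;Cxcr6-/- libraries and 40.1% and 39.7% in the 5xFAD libraries. Frame 1 was the most frequent frame of TRBD1 with TRBJ1 in all 4 libraries, and no test was run on frames. Junctions with both segments were rare: matches of at least 6 bases over base 6 of TRBD1 and then of TRBD2 stood in 2 of 2926 TRBJ2 rearrangements, and the reverse order in 0 of 2926.

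Along the TRBJ2 cluster the TRBD2 share of deposited D calls was 45.7% for TRBJ2-1 (64 of 140), 48.4% for TRBJ2-2 (30 of 62), 58.1% for TRBJ2-3 (43 of 74), 48.7% for TRBJ2-4 (37 of 76), 32.5% for TRBJ2-5 (40 of 123) and 52.3% for TRBJ2-7 (138 of 264). By library it ranged between 29.5% and 38.9% for TRBJ2-5 and between 33.3% and 70.8% for TRBJ2-3. TRBJ2-5 was also lowest and TRBJ2-3 also highest with the direct match, at 53.4% and 67.5%. The TRBJ2-6 pseudogene segment and TRBJ1-7 were in 0 rearrangements. Along the TRBJ1 cluster TRBD2 had 2 of 110 calls with TRBJ1-1, 1 of 55 with TRBJ1-2, 2 of 46 with TRBJ1-3, 0 of 60 with TRBJ1-4, 0 of 30 with TRBJ1-5 and 1 of 28 with TRBJ1-6. The share with no called D ran between 71.9% for TRBJ2-7 and 83.5% for TRBJ1-3.

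The TRBD2 share was also taken by V segment, with no test between segments. Of those with at least 30 TRBJ2 rearrangements with a called D, the TRBD2 share was highest for TRBV3 at 64.6% (31 of 48), TRBV13-3 at 60.3% (35 of 58) and TRBV16 at 52.8% (28 of 53). It was lowest for TRBV29 at 7.32% (3 of 41), TRBV19 at 36.7% (18 of 49) and TRBV10 at 38.9% (14 of 36). By library TRBV29 ranged between 0% and 13.6%, TRBV3 between 63.2% and 66.7% and TRBV10 between 33.3% and 44.4%. The ranges of the others were wide and overlapped, with 44.4% to 87.5% for TRBV13-3, 16.7% to 64.3% for TRBV16 and 0% to 50% for TRBV19. With the direct match TRBV29 had 34.7% (35 of 101), with 28.6% to 40% by library, against 61.2% over all TRBJ2 rearrangements. TRBV10 had 68.4% (65 of 95) with the direct match, above that value, and TRBV13-3 had 58.6% (92 of 157), below it, so the place of both in the order turned with the D call. TRBV31, which lies on the minus strand behind TRBC2, 24490 bases after the start of TRBD1, had 65.4% (17 of 26) with the deposited call and 81.2% (56 of 69) with the direct match, and was named after its value was seen. The V segments most alike to each member over the 4580 rearrangements, by the Jaccard index (rearrangements with both over rearrangements with either), were TRBV13-2 (0.0674) and TRBV13-3 (0.0557) for TRBD2, TRBV13-2 (0.0965) and TRBV29 (0.0694) for TRBD1, TRBV13-2 (0.130) and TRBV19 (0.0723) for TRBC2, and TRBV13-2 (0.128) and TRBV29 (0.0751) for TRBC1. TRBV13-2 was the most frequent V segment, in 687 of the 4580 rearrangements. The index rises with the frequency of a segment, so its place does not show a preference for any member. TRBV13-2 here includes 728 contigs labelled TRBV12-2+TRBV13-2, whose framework 3 was found in germline TRBV13-2 in 728 cases and in TRBV12-2 in 0.

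Expanded clones, those with at least 2 cells, had the higher TRBD2 share. Among TRBJ2 rearrangements with a called D it was 61.5%, 50%, 56.5% and 59.5% in expanded clones and 43.0%, 42.4%, 49.5% and 47.1% in single clones of the 5xFAD;Cxcr6-/- libraries 1 and 2 and the 5xFAD libraries 1 and 2. The values of expanded and single clones did not overlap, and the difference was 11.4 percentage points, positive in 4 of 4 libraries (56.9% ± 5.04 and 45.5% ± 3.39, SD, n = 4 libraries). The exact two-sided sign-flip permutation test gave p = 0.125, the smallest it can give, and 0.5 adjusted over 4 comparisons. With the direct match the difference was 3.71 percentage points and was positive in 3 of 4 libraries (63.8% and 60.1%, exact permutation p = 0.25). With the deposited call and clones of at least 5 cells taken as expanded it was 20.4. That value rests on few rearrangements, with TRBD2 in 2 of 2, 1 of 2, 3 of 6 and 7 of 11 in the same order of libraries. Over the 4 libraries the deposited share was 46.2% (299 of 647, 42.3% to 50.1%) in clones of 1 cell, 56.3% (40 of 71, 44.0% to 68.1%) in clones of 2 to 4 cells and 61.9% (13 of 21, 38.4% to 81.9%) in clones of 5 or more.

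**Figure D5:**
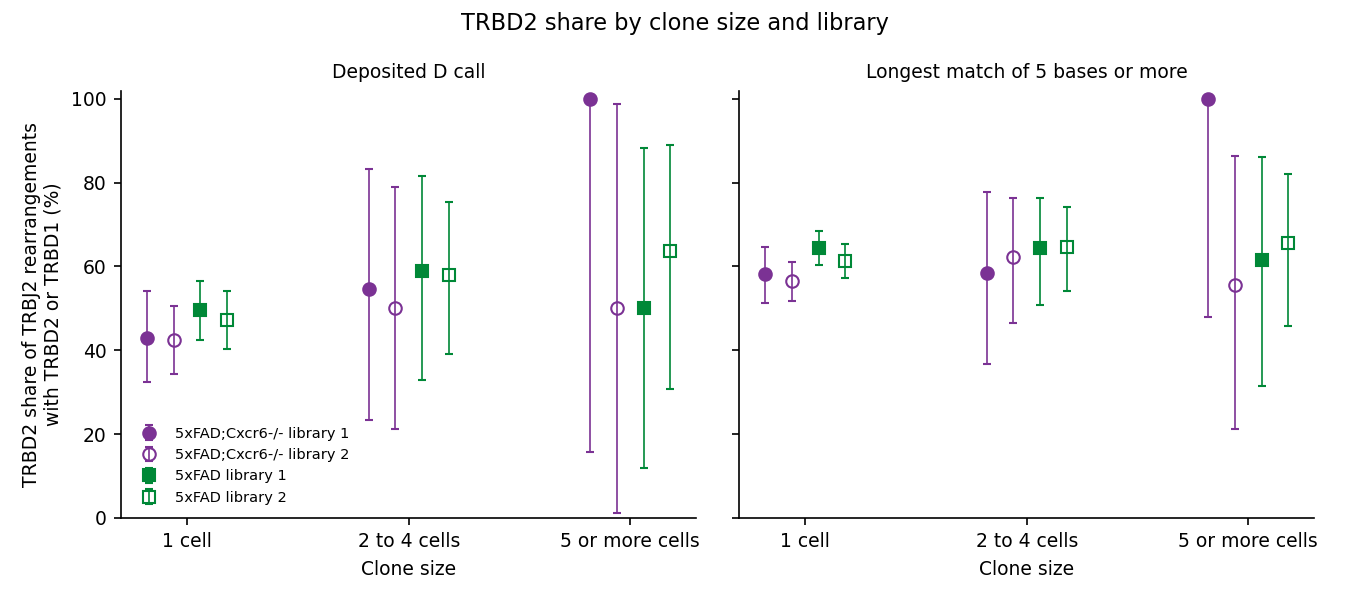
TRBD2 share in percent of TRBJ2 rearrangements with TRBD2 or TRBD1, by clone size and library, with exact 95% Clopper-Pearson intervals, for the deposited call (left) and the longest match of at least 5 bases (right). Circles are 5xFAD;Cxcr6-/- libraries and squares 5xFAD libraries. On the left the values of clones of 2 to 4 cells lie above those of single cells in each library, on the right they do so in all but 5xFAD library 1 (64.4% and 64.5%), and the intervals are wide.

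The other readouts showed no common direction with clone size. The share with no called D was 71.6%, 81.5%, 77.0% and 77.1% in expanded clones and 76.8%, 77.4%, 76.8% and 75.8% in single clones, in the same order of libraries (difference 0.0977 percentage points, exact permutation p = 0.875). The TRBC2 share was 56.8%, 63.0%, 69.1% and 63.9% in expanded clones and 60.5%, 66.1%, 63.3% and 65.2% in single clones (difference -0.595 percentage points, exact permutation p = 0.875). Mean CDR3 length differed by -0.0732 amino acids (exact permutation p = 0.625). The TRB rearrangement with the most cells in each library is shown. Its longest D match outside the V and J matches is in capitals where that was at least 5 bases.
5xFAD;Cxcr6-/- library 1, TRBV17 with TRBJ2-7, TRBD2 called, 51 cells: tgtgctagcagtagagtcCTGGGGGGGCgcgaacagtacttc
5xFAD;Cxcr6-/- library 2, TRBV10 with TRBJ2-7, no D called, 31 cells: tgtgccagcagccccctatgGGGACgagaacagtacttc
5xFAD library 1, TRBV16 with TRBJ2-1, no D called, 254 cells: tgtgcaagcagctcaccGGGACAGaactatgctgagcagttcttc
5xFAD library 2, TRBV16 with TRBJ2-4, no D called, 76 cells: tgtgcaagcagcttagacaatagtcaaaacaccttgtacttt

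All 4 of these carried TRBJ2 and TRBC2. Outside the V and J matches the first held 10 bases of TRBD2 and the second 5 bases that both segments share. There the third held 7 bases of TRBD1 and the fourth at most 2 bases of either.

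iNKT-like cells were those with a TRA chain of TRAV11 or TRAV11D joined to TRAJ18, as in invariant natural killer T cells, which recognise lipids on CD1d. Their clones gave 25 and 25 rearrangements in the 5xFAD;Cxcr6-/- libraries and 227 and 174 in the 5xFAD libraries. The TRBC2 share was lower in iNKT-like than in other rearrangements in each library, at 48.0%, 64.0%, 60.5% and 55.8% in iNKT-like rearrangements and 60.5%, 65.8%, 64.6% and 66.1% in the others of the 5xFAD;Cxcr6-/- libraries 1 and 2 and the 5xFAD libraries 1 and 2. The difference was -7.19 percentage points (57.1% ± 6.93 and 64.3% ± 2.57, SD, n = 4 libraries; exact sign-flip permutation test, two-sided, p = 0.125, adjusted 0.5 over 4 comparisons). The difference was -7.97 within TRBV13-2, a V segment much used by these cells, and -5.14 in cells with 1 TRB contig, each negative in 3 of 4 libraries (exact permutation p = 0.25). TRBD2 was called in 1 of 1, 1 of 3, 21 of 41 and 11 of 33 iNKT-like TRBJ2 rearrangements with a called D, against 44.9%, 43.2%, 50% and 51.6% of the others, and lay above them in 2 libraries and below them in 2 (exact permutation p = 0.875). No TRBD2 was called among the 31 iNKT-like TRBJ1 rearrangements with a called D, which allows a share of up to 9.68%.

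The share with no called D in iNKT-like rearrangements was 92.0% and 84.0% in the 5xFAD;Cxcr6-/- libraries, above the 75.4% and 77.6% of the other rearrangements there. In the 5xFAD libraries it was 75.8% and 72.4%, below the 77.0% and 76.5% of the others. Over 4 libraries the difference of 4.41 percentage points did not pass the test (exact permutation p = 0.5). CDR3 length was 13.6, 14.4, 14.3 and 14.2 amino acids in iNKT-like rearrangements and 13.8, 13.9, 14.0 and 13.8 in the others (difference 0.259, exact permutation p = 0.25).

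Genotypes were compared over libraries, where 2 against 2 cannot give an exact permutation p below 0.333. The TRBD2 share of TRBJ2 rearrangements with a called D was 45.5% and 43.0% in the 5xFAD;Cxcr6-/- libraries, against 50.2% and 49.2% in the 5xFAD libraries (44.2% ± 1.71 and 49.7% ± 0.720, SD, n = 2 each). The libraries did not overlap, and the difference was -5.47 percentage points (exact two-sided permutation test, p = 0.333, adjusted 0.833 over 5 comparisons). With the direct match the libraries did not overlap either and the difference was -5.27, but matches of at least 10 bases gave 2.03. Counting each contig also turned the direction, at 64.7% and 44.9% in the 5xFAD;Cxcr6-/- libraries and 51.0% and 49.7% in the 5xFAD libraries. The 51-cell clone with TRBD2 shown above belongs to the first of these libraries.

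The other members did not separate the genotypes beyond the spread of libraries. The TRBC2 share averaged 62.9% ± 4.07 in 5xFAD;Cxcr6-/- and 64.5% ± 0.734 in 5xFAD libraries (difference -1.60 percentage points, exact permutation p = 1, n = 2 each). The share with no called D averaged 77.0% ± 1.18 in 5xFAD;Cxcr6-/- and 76.4% ± 0.537 in 5xFAD libraries (difference 0.544, exact permutation p = 0.667). TRBD2 with TRBJ1 averaged 2.63% and 1.50% of called D segments, without overlap but from 1 or 2 rearrangements per library (difference 1.13, exact permutation p = 0.333). Mean CDR3 length was 13.8 ± 0.0346 amino acids in 5xFAD;Cxcr6-/- and 13.9 ± 0.132 in 5xFAD libraries (difference -0.0883, exact permutation p = 0.667), and the TRBC of the other J cluster was at 0 in both genotypes.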

How the data were processed

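Receptor libraries of 4 samples were used, 2 per genotype. Cell Ranger 6.0 and mm10 are named per the submitters' processing notes, and the receptor reference is not given in the sources used here. Each contig has deposited raw UMI and read counts, a length in bases and calls of V, D, J and C segments, per the file headers. The contigs were all productive TRA or TRB chains. The chromosome, order and sequence of germline segments came from GENCODE vM21 (GRCm38, which is mm10).

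Clonotypes and clone sizes are those of the deposited tables. A rearrangement was a distinct TRB CDR3 nucleotide sequence within a clonotype of a library, with its most frequent D and C call. For the direct D match, germline V (last 45 bases) and J (first 40 bases) were matched exactly to the ends of the CDR3, and the bases between were searched for the longest exact match to each TRBD.

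Shares and means per library were compared with exact two-sided permutation tests, by genotype (2 against 2) or by sign flips of within-library differences (4), with Benjamini-Hochberg adjustment within each family and a threshold of 0.05. TRBC against the J cluster was at 0 throughout and was not tested. Named were the 4 genes, all TRBJ segments, the 2 TRBV most alike to each gene, the 3 TRBV of highest and lowest TRBD2 share, and the TRBD2 with TRBJ1 rearrangements with most cells in each library. Members, lists and tests were chosen with earlier results of these data known, and frames, trimming, junctions with both D segments, TRBV31 and the other junctions shown were chosen after their values were seen. Alternatives covered the unit counted, the cells, UMIs and clones used, the D call, single libraries left out and the replicate numbers as a block. Python 3.11.15, pandas 2.3.3, NumPy 2.4.6 and SciPy 1.17.1 were used.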

Additional observations from a re-analysis of the deposited data

Results flagged for a closer look

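The share with no called D in iNKT-like minus other rearrangements was 16.6 and 6.36 percentage points in the 5xFAD;Cxcr6-/- libraries and -1.23 and -4.07 in the 5xFAD libraries, so both libraries of each genotype moved one way and those of the other genotype the opposite way. The genotypes differed by 14.1 percentage points (exact two-sided permutation test, p = 0.333, the smallest that 2 against 2 libraries can give). The 5xFAD;Cxcr6-/- values rest on 25 iNKT-like rearrangements per library, of which 23 and 21 had no called D.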

How the results depend on the processing

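Of 255 alternative values, 45 bear on no direction, since they equal the reported value or restate a length in nucleotides. They include all those of 2 results, TRBC against the J cluster (0) and TRBC2 of TRBJ2 minus TRBJ1. Of the other 210 values, over 17 results, 184 kept their direction and 26 turned it, over 9 results. No result passed the threshold of 0.05 in any setting, since the designs cannot give a p below 0.125. The 8 results that kept their direction under all these alternatives included the TRBD2 share and no-D share of TRBJ2 minus TRBJ1, both differences of CDR3 length by D call, and the TRBD2 share of expanded minus single clones (3.71 to 20.4 percentage points).

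The reversals were as follows, in percentage points unless stated, and their cause was not tested. With each contig counted, the genotype difference was 4.43 for TRBD2 in TRBJ2 and -2.73 for no called D, TRBC2 by clone size was 2.07, and TRBD2 of iNKT-like rearrangements was -0.715. The no-D share by clone size turned to -0.458 with distinct chains, -0.963 in cells with 1 TRB, -0.349 with at least 3 UMIs, -0.130 and -1.49 with matches of at least 5 and 10 bases, and -0.312 with deposited calls that equal the longest match. TRBC2 by clone size was 0.418 with distinct chains. TRBD2 in TRBJ1 by genotype was -0.101 with at least 3 UMIs and -0.926 with matches of at least 7 bases. TRBD2 of iNKT-like rearrangements was -1.23 and -5.16 with matches of at least 5 and 7 bases. TRBD2 in TRBJ2 by genotype was 2.03 with matches of at least 10 bases, and no called D by genotype was -0.217 without iNKT-like clones. The setting of 10 bases and that of calls equal to the longest match were chosen after seeing the data.

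Leaving out each library in turn turned 7 results, with ranges of -0.288 to 1.38 for no called D by genotype, -4.48 to 1.28 for TRBC2 by genotype, -0.181 to 0.00472 amino acids for CDR3 length by genotype, -1.24 to 1.85 for no called D by clone size, -2.72 to 0.447 for TRBC2 by clone size, -0.160 to 0.00111 amino acids for CDR3 length by clone size, and -8.97 to 15.5 for TRBD2 of iNKT-like rearrangements. The 15.5 was reached without 5xFAD library 2, and the -8.97 without 5xFAD;Cxcr6-/- library 1, which held 1 such rearrangement.

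Replicate numbers 1 and 2 are shared by the genotypes, and the deviations of same-numbered libraries correlated at 0.205 over 33 segments, from 2 pairs only, so the numbers were not taken to pair the libraries. With the replicate number as a block, the genotype difference of TRBD2 in TRBJ2 stayed -5.47 (exact p = 0.5, the smallest 2 pairs can give), and no other direction changed. Clones of at least 5 cells gave 21 TRBJ2 rearrangements with a called D in all, so counting error limits the classes of large and iNKT-like clones.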
